A study of Mus musculus with 80 samples.

Results

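The uncoupling protein genes Ucp1, Ucp2 and Ucp3 were followed in 4 mouse tissues, namely liver, muscle, brown fat (BAT) and the white fat of the inguinal depot (iWAT). They were chosen by symbol, as 3 of the 32764 genes in the count tables, and all 3 were found. The mice were males of C57BL/6J background in 4 genotypes, which are wildtype (WT), FGF21 KO, UCP1 KO and the double knockout of UCP1 and FGF21 (dKO, which the labels spell UCP1/FGF12). All of them were bred and raised at 30 °C, were moved to room temperature and put on a high-fat diet at 10 to 12 weeks of age, and were sampled after 3 weeks, so that the WT group had the same change of temperature and diet as the knockouts. Each of the 16 groups of tissue and genotype held 5 RNA sequencing libraries, which gave 80 in all. The labels name no allele of either knockout and tie no library to a mouse. The methods of the study give 5 mice for the RNA of each genotype, as many as there are libraries in a group, so the libraries of different tissues may come from the same mice. The study sequenced RNA of these tissues to learn how FGF21 controls the resistance of UCP1 KO mice to obesity.

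Uncoupling proteins are carriers of the inner mitochondrial membrane. UCP1, the protein of brown and beige adipocytes, lets protons back into the mitochondrial matrix when fatty acids activate it, so that respiration releases heat in place of driving ATP synthesis. UCP2 is found in many cell types, with immune cells among its main sites, and UCP3 is found mainly in skeletal muscle and brown fat. The roles of both are less settled and are linked to fatty acid use and reactive oxygen species, and neither is known to replace UCP1 in cold-induced heat production.

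Ucp1 lies on chromosome 8 and Ucp2 and Ucp3 lie side by side on chromosome 7, all on the plus strand. On GRCm38 with the GENCODE annotation, Ucp1 spans chr8:83290352-83298452 with 1636 bases of exon, Ucp2 spans chr7:100493337-100502020 with 6989 bases of exon over its 11 annotated transcripts, and Ucp3 spans chr7:100472990-100486432 with 3135 bases over 4 transcripts. Ucp3 ends 6904 bases before Ucp2 begins. The end of Ucp2 overlaps Dnajb13 on the opposite strand and the start of Ucp3 overlaps the antisense gene Gm10603, and whether the counting used strand is not given in the sources used here, so reads in these overlaps may not be told apart. The 250 bases before each start site are shown because the 3 genes differed in the tissues where they were expressed. They come from RefSeq on GRCm38.p6 at chr8:83290098-83290347, chr7:100493108-100493357 and chr7:100472741-100472990, and GENCODE begins Ucp2 within the last bases of that window. Capitals mark the motifs spelled out after the sequences.
Ucp1: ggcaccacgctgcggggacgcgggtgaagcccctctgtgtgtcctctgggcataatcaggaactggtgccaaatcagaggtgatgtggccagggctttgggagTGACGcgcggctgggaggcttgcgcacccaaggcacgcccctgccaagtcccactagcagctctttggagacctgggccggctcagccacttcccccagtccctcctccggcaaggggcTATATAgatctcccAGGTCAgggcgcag
Ucp2: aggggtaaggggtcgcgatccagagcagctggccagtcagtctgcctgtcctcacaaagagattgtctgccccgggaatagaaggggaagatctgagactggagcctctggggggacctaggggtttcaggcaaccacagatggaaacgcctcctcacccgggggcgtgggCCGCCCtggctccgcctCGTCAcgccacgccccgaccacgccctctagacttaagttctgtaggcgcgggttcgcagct
Ucp3: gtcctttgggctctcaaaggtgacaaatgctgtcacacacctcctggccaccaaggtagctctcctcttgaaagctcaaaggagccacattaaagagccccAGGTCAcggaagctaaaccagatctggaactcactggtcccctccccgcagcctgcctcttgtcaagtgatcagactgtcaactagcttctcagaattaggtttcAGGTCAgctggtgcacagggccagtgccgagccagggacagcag
The window of Ucp1 held TATATA at 28 to 23 bases before the start, AGGTCA, the core of nuclear receptor elements, at 14 to 9, and TGACG, the core of the cyclic AMP response element, at 147 to 143. The window of Ucp2 held TGACG as its reverse complement at 62 to 58 bases and the GC box GGGCGG as its reverse complement at 79 to 74. The window of Ucp3 held AGGTCA at 149 to 144 and at 44 to 39 bases. The marked motifs did not overlap each other. Of 32851 RefSeq promoter windows of the same length, 5.25% held the run marked in Ucp1, 14% the nuclear receptor core, 17.8% the cyclic AMP element core and 32.7% the GC box, on either strand. Neither the TATA box TATAAA, held by 12.4% of windows, nor the full element TGACGTCA, held by 1.55%, was in any of the 3. The dinucleotide CG occurred 16 times in Ucp2, 12 times in Ucp1 and 3 times in Ucp3, beside a median of 6. These matches describe the letters only.

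The libraries held 28691377 to 50380696 counts on named genes (median 38022853). Levels are given as CPM, the count of a gene scaled to the total of its library, and levels of different genes were compared only per kilobase of merged exons. Differences are log2 fold changes with their standard error (SE) from edgeR's quasi-likelihood test, with p-values adjusted over all genes tested (Benjamini-Hochberg), and a gene was called when the adjusted p was under 0.01. Beside it stands an exact permutation test of log2 CPM (two-sided), whose smallest possible p for 5 libraries against 5 is 0.00794. Marker genes followed the tissue labels. Alb, the main hepatocyte product, was highest in liver, Acta1, skeletal muscle actin, was highest in muscle, and Adipoq, the adipocyte hormone adiponectin, was at 922 to 2953 CPM in iWAT and 274 to 832 CPM in BAT. Fgf21 had 0 to 3 counts in all libraries labelled FGF21 KO or dKO, and 353 to 1728 counts in BAT labelled UCP1 KO against 7 to 10 in WT BAT. In iWAT, 9 of 20 libraries carried lymph node marker RNA (mean log2 CPM of 8 genes 6.48 to 7.71, against -0.54 to 1.59 in the other libraries), and of these 4 were FGF21 KO, 2 WT, 2 dKO and 1 UCP1 KO. Tissue RNA cannot tell fewer cells of a type from less RNA per cell.

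The targeted gene did not follow its label in every tissue. In BAT, the libraries labelled UCP1 KO had 696 to 1332 CPM of Ucp1, below the 2983 to 7132 CPM of WT but far from 0. In iWAT, the libraries labelled UCP1 KO had 110 to 599 CPM, above the 2.94 to 17.4 CPM of WT. The counts cover the whole gene, the part of it that the reads came from was not analysed here, and a count of transcript is no measure of protein. The genotype names below therefore stand for the labels.

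**Figure D1:**
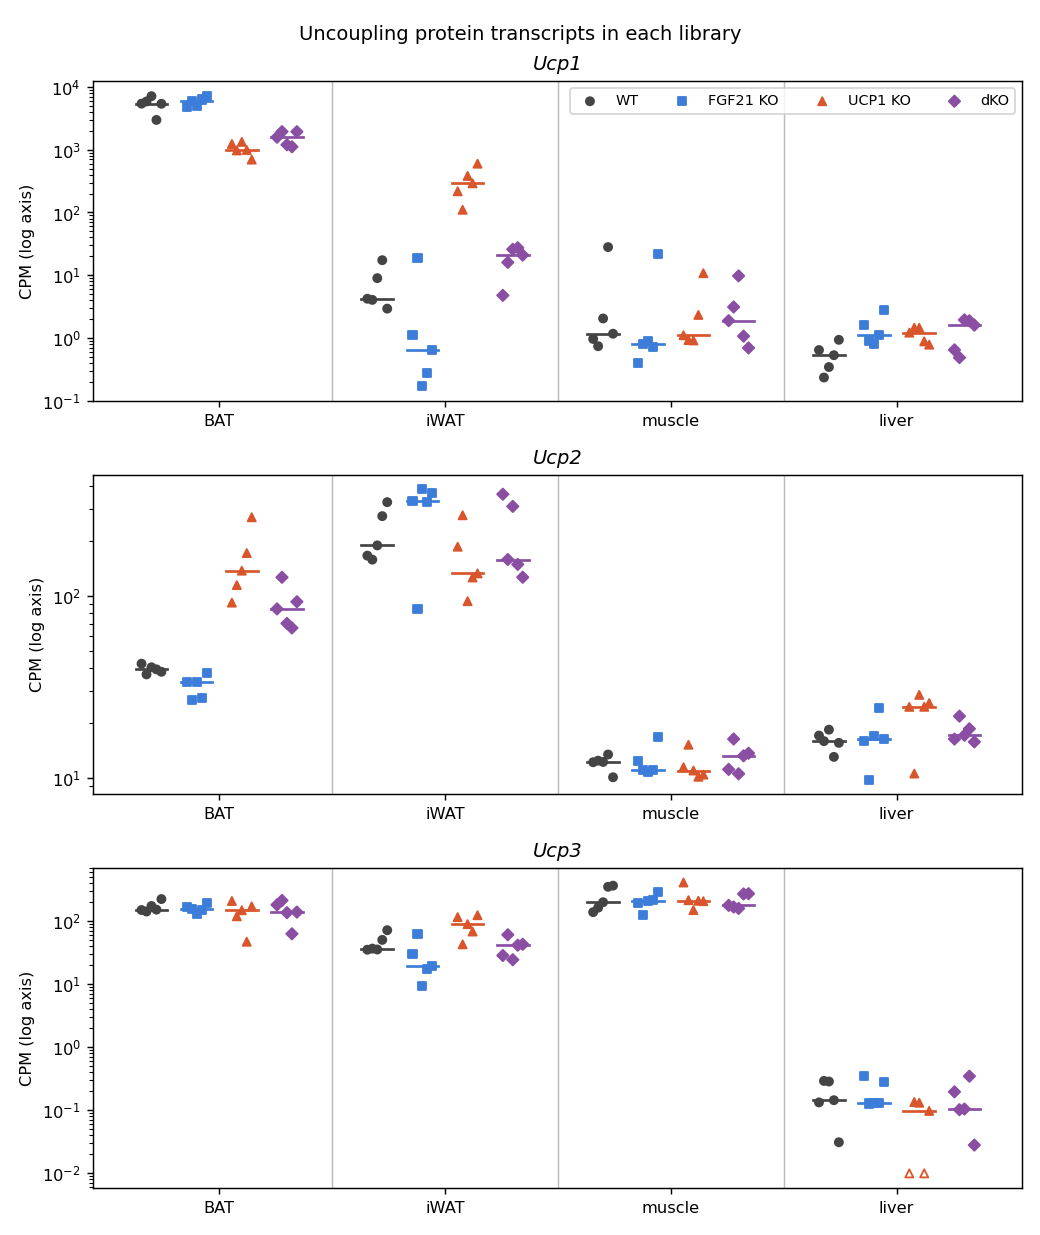
CPM of Ucp1, Ucp2 and Ucp3 on a log axis, 1 point per library and 1 line at the median of each group of 5, by tissue and labelled genotype. Ucp1 in BAT is lower and Ucp1 in iWAT is higher in the UCP1 KO points than in the WT points, Ucp2 in BAT is higher in UCP1 KO and dKO, and 2 open triangles mark libraries with 0 counts of Ucp3, drawn at 0.01 CPM.

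In WT, each member had its own tissue order. Ucp1 was a BAT transcript. The 5 WT BAT libraries had 5425, 5872, 7132, 2983 and 5397 CPM, a mean of 5362 ± 1505 (SD). WT iWAT had 2.94 to 17.4 CPM, WT muscle 0.74 to 28.1 CPM and WT liver 0.234 to 0.935 CPM. All BAT libraries lay above all libraries of the other tissues. The level in BAT was higher by 10.23 log2 units than in iWAT, by 9.40 than in muscle and by 12.94 than in liver (SE 1.16, 1.12 and 1.29, edgeR adjusted p = 2.02e-07, 2.87e-07 and 1.89e-08). In these comparisons 60.7%, 64.1% and 67.3% of all genes tested were called. The difference between iWAT and muscle was -0.83 (edgeR adjusted p = 0.342) and turned to 1.62 without WT muscle replicate 4 (edgeR adjusted p = 0.00521). Muscle was higher than liver by 3.54 (edgeR adjusted p = 0.00172), and without that library by 1.09 (edgeR adjusted p = 0.0585), while 73.8% of genes were called between these tissues. Between iWAT and liver, where 74.9% of genes were called, the difference of 2.71 missed the threshold (edgeR adjusted p = 0.0101).

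Ucp2 was highest in iWAT. WT iWAT had 166, 158, 188, 273 and 325 CPM, WT BAT 37.0 to 42.3 CPM, WT liver 13.1 to 18.4 CPM and WT muscle 10.1 to 13.5 CPM. The groups followed each other in this order without overlap, except that the lowest liver library (13.1 CPM) lay just under the highest muscle library (13.5 CPM). All 6 pairs of tissues were called. Ucp2 was higher in iWAT than in BAT by 1.73 log2 units (SE 0.128, edgeR adjusted p = 5.18e-10), higher in BAT than in liver by 0.96 (SE 0.127, edgeR adjusted p = 1.15e-06) and higher in liver than in muscle by 0.51 (SE 0.128, edgeR adjusted p = 0.00116). Between iWAT and muscle 74.4% of genes were called and the median gene was itself higher in iWAT by 0.23, against 3.19 for Ucp2. The 3 WT iWAT libraries without lymph node RNA had 158 to 188 CPM and the 2 with it 273 and 325 CPM.

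Ucp3 was high in muscle and BAT, lower in iWAT and near 0 in liver. WT muscle had 140, 165, 201, 354 and 369 CPM and WT BAT had 151, 143, 175, 153 and 226 CPM. These groups overlapped, and the difference between BAT and muscle of -0.79 log2 units was not called by edgeR (SE 0.273, adjusted p = 0.0137), whereas DESeq2 gave -0.82 (adjusted p = 0.00611). WT iWAT had 35.5 to 72.4 CPM, lower than BAT by 2.64 and lower than muscle by 3.43 (edgeR adjusted p = 1.32e-07 and 2.65e-09). In liver Ucp3 had 0 to 12 counts in any library, which left it out of the tests between genotypes there, and the 2 libraries with a count of 0 allow up to 3 counts.

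Set against each other per kilobase, the 3 genes divided the tissues among them. In WT BAT, Ucp1 made up 98.1% ± 0.662 (SD, n = 5) of the summed CPM per kilobase. In WT muscle, Ucp3 made up 94.0% ± 4.91. In WT liver and WT iWAT, Ucp2 took the main share, with 85.6% ± 4.65 and 62.1% ± 2.21. The sum itself was 3337 CPM per kilobase in WT BAT, 84.1 in WT muscle, 51.1 in WT iWAT and 2.68 in WT liver, so the share of a gene in liver rests on a low level. Between WT and UCP1 KO, the shares differed by more in iWAT than in the other tissues. In iWAT labelled UCP1 KO, Ucp1 held 75.2% ± 13.1 of the sum against 8.95% ± 5.36 in WT, Ucp2 held 12.7% and Ucp3 12.1%.

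**Figure D2:**
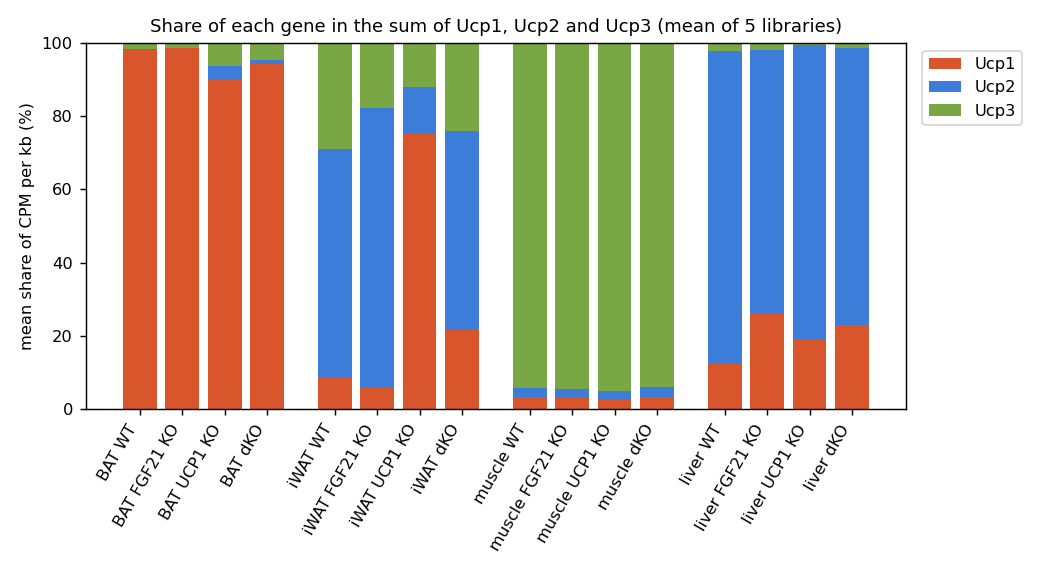
Mean share of each gene in the summed CPM per kilobase of Ucp1, Ucp2 and Ucp3, in percent, for the 16 groups of 5 libraries. Ucp1 fills 98.1% of the WT BAT bar, Ucp3 94.0% of the WT muscle bar and Ucp2 62.1% of the WT iWAT bar, and Ucp1 fills 75.2% of the iWAT bar labelled UCP1 KO.

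In BAT, Ucp1 fell and Ucp2 rose in both genotypes labelled as lacking UCP1, and Ucp3 was not called. Ucp1 was at 1234, 974, 1332, 991 and 696 CPM in UCP1 KO (mean 1045 ± 249) and at 1581, 1942, 1200, 1114 and 1937 CPM in dKO (mean 1555 ± 393). WT was at a mean of 5362 CPM and FGF21 KO at 4785 to 7291 CPM (mean 5863 ± 1022). No library of UCP1 KO or dKO reached the lowest WT or FGF21 KO library. Ucp1 fell by 2.62 log2 units in UCP1 KO against WT (SE 0.254, edgeR adjusted p = 8.98e-07), by 1.98 in dKO against WT (SE 0.248, edgeR adjusted p = 1.45e-05) and by 2.14 in dKO against FGF21 KO (SE 0.249, edgeR adjusted p = 9.98e-06). These comparisons set a gene against its own knockout, so they check the labels and are no response of another gene.

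Ucp2, the widely expressed member, moved the other way in BAT. WT had 42.3, 37.0, 40.5, 39.4 and 38.2 CPM and UCP1 KO had 91.5, 114, 137, 171 and 269 CPM. FGF21 KO had 26.8 to 37.6 CPM, and dKO had 84.5, 126, 70.4, 66.5 and 92.6 CPM. All libraries of UCP1 KO and dKO lay above all libraries of WT and FGF21 KO. Ucp2 rose by 1.65 log2 units in UCP1 KO against WT (SE 0.192, edgeR adjusted p = 5.02e-06), by 0.96 in dKO against WT (SE 0.189, edgeR adjusted p = 0.000849) and by 1.24 in dKO against FGF21 KO (SE 0.19, edgeR adjusted p = 0.000142). Thus Ucp2 was called in each of these comparisons and Ucp3 in none, beside Ucp1, which is the targeted gene itself. In them 25.2%, 21.1% and 13.5% of all genes tested were called. UCP1 KO and dKO themselves overlapped in Ucp2, with a difference of 0.69 (SE 0.187, edgeR adjusted p = 0.179), and in Ucp1, with -0.64 (SE 0.24, edgeR adjusted p = 0.295). Between them 0.0636% of genes were called. The interaction term, for which 0% of genes were called, was -0.48 for Ucp1 and 0.40 for Ucp2 (edgeR adjusted p = 0.933 for both).

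Macrophage markers were also higher in the BAT of UCP1 KO. In UCP1 KO against WT, 7 of 8 macrophage genes were called higher and 0 lower, beside 13.8% and 11.4% of all genes, with a median of 1.32 log2 units beside 0.0097 over all genes, among them Cd68, a lysosomal protein of macrophages, at 1.81 and the complement gene C1qa at 1.15. Their score, the mean log2 CPM of the 8 genes, was 3.62 to 3.81 in WT, 3.52 to 4.25 in FGF21 KO, 4.10 to 5.19 in dKO and 4.46 to 5.999 in UCP1 KO. With this score in the model (a choice made after seeing the data), the difference of Ucp2 between UCP1 KO and WT was 1.10 (edgeR adjusted p = 0.0269) and that between dKO and WT 0.62 (edgeR adjusted p = 0.0555), so neither passed the threshold. WT did not overlap UCP1 KO or dKO in this score. The fit therefore parts score from genotype only by variation within genotypes, and the lost calls cannot decide between them. The difference between dKO and FGF21 KO remained called at 0.94 (edgeR adjusted p = 0.00803), as did the fall of Ucp1 in UCP1 KO against WT at -2.26 (edgeR adjusted p = 0.00394). Within genotypes, over 20 BAT libraries, the deviation of Ucp2 from its genotype mean went with the lymph node score (Pearson r = 0.645), the endothelial score (r = 0.48) and the macrophage score (r = 0.43), as a description. It went against the skeletal muscle score (r = -0.463). The lymph node score was low there, with a range of -1.16 to -0.87 for WT and of -0.92 to 0.17 for UCP1 KO. Between these groups the median difference of its 7 tested genes was 0.18 and that of 4 endothelial genes -0.11. Which cells carried the Ucp2 reads was not tested.

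Ucp3 in BAT had 151, 143, 175, 153 and 226 CPM in WT and 210, 120, 150, 47.5 and 173 CPM in UCP1 KO. FGF21 KO had 130 to 197 CPM and dKO 63.4 to 215 CPM. The groups overlapped in all comparisons, and the difference between UCP1 KO and WT was -0.55 (SE 0.316, edgeR adjusted p = 0.176). Ucp3 is also a muscle transcript, and skeletal muscle markers varied in BAT. Their score of 10 genes was 1.29 to 3.41 in WT, 1.39 to 5.10 in FGF21 KO, 2.64 to 9.83 in UCP1 KO and 3.06 to 8.78 in dKO, and edgeR called 6 of these 10 higher when UCP1 KO was set against WT, beside 13.8% of all genes. With this score as a covariate the difference of Ucp3 was -0.33 (edgeR adjusted p = 0.477). For FGF21 KO against WT in BAT, none of the 3 members was called by edgeR or DESeq2, none had an unadjusted p under 0.05 in edgeR, and 0% of genes were called. Ucp2 differed by -0.28 there, with overlapping groups (exact permutation p = 0.0238, edgeR adjusted p = 0.755).

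In iWAT, Ucp1 was highest in the libraries labelled UCP1 KO, and edgeR called no member. Ucp1, a marker of beige adipocytes in this depot, was at 4.22, 4.05, 8.99, 17.4 and 2.94 CPM in WT and at 218, 110, 382, 292 and 599 CPM in UCP1 KO. FGF21 KO had 1.11, 18.8, 0.169, 0.28 and 0.64 CPM, and dKO had 4.78, 16.03, 25.9, 27.4 and 20.9 CPM. All 5 libraries of UCP1 KO lay above all 15 libraries of the other genotypes, while WT, FGF21 KO and dKO overlapped. The difference between UCP1 KO and WT was 5.65 log2 units (SE 1.23, exact permutation p = 0.00794) and that between UCP1 KO and dKO 4.28 (SE 1.15, exact permutation p = 0.00794). Neither passed the threshold over all genes in edgeR (adjusted p = 0.0195 and 0.0576), whereas DESeq2 gave 5.66 and 4.27 with adjusted p = 4.92e-07 and 0.000472. The call by edgeR depended on which libraries were fitted. Without FGF21 KO replicate 2, at 18.8 CPM against 0.169 to 1.11 in the other FGF21 KO libraries, the edgeR adjusted p was 0.000884 against WT and 0.00371 against dKO, and without UCP1 KO replicate 2 it was 0.00929 against WT. In fits of only the 2 genotypes compared, which hold no FGF21 KO library, the differences were 5.65 and 4.25 and were not called (edgeR adjusted p = 0.0153 and 0.0497). The difference between dKO and FGF21 KO was 2.08 (SE 1.05, edgeR adjusted p = 0.542), where 0.0115% of genes were called, that between FGF21 KO and WT was -0.71 (SE 1.02, edgeR adjusted p = 0.63), where 0.00575% were called, and the interaction term, which asks whether the effect of UCP1 loss depends on FGF21, was 3.57 (SE 1.47, edgeR adjusted p = 0.416). These values rested on FGF21 KO replicate 2. Without it they were 5.38, -4.01 and 0.27 (edgeR adjusted p = 0.0308, 0.0537 and 0.893), none of them called. That library was also the 1 of FGF21 KO without lymph node RNA, so the 4 left all carried it. With it as the 1 FGF21 KO library, among the libraries without lymph node RNA, the 3 values were 0.14, 1.82 and 6.03 (edgeR adjusted p = 1, 0.581 and 0.0253), again none called. Over the 20 libraries, the deviation of Ucp1 from its genotype mean had a Pearson r of -0.605 with that of the lymph node score, as a description. Without WT replicate 4, at 17.4 CPM, the difference between FGF21 KO and WT was -0.18 (edgeR adjusted p = 0.909).

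Ucp2 in iWAT followed the lymph node markers across libraries. The 9 libraries with lymph node RNA had 273 to 384 CPM and the other 11 had 84.5 to 188 CPM, so these sets did not overlap. By genotype, WT had 158 to 325 CPM, FGF21 KO 84.5 to 384, UCP1 KO 93.2 to 276 and dKO 126 to 360. Over the 20 libraries, the deviation of Ucp2 from its genotype mean went with that of the lymph node score (Pearson r = 0.893) and with that of the macrophage score (r = 0.786), as a description over libraries that share a tissue and its make-up. Between UCP1 KO and WT the difference was -0.31 (SE 0.297, edgeR adjusted p = 0.75), and -0.21 among the libraries without lymph node RNA (edgeR adjusted p = 0.456). The difference between FGF21 KO and WT was 0.20 in all libraries and -0.20 after adjustment for the lymph node score, neither of them called.

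Ucp3 in iWAT was at 35.5, 36.9, 35.7, 50.8 and 72.4 CPM in WT and at 117, 43.2, 90.4, 68.9 and 125 CPM in UCP1 KO. FGF21 KO had 30.2, 63.2, 9.47, 17.4 and 19.7 CPM, and dKO had 24.6 to 61.3 CPM. The groups overlapped, with differences of 1.17 between UCP1 KO and WT (SE 0.496, edgeR adjusted p = 0.263) and 1.32 between UCP1 KO and dKO (SE 0.498, edgeR adjusted p = 0.202). Among the libraries without lymph node RNA, 4 UCP1 KO libraries had 68.9 to 125 CPM and 3 WT libraries 35.5 to 36.9 CPM. There the difference was 1.62 and was called (edgeR adjusted p = 0.00278), in a fit where FGF21 KO had 1 library that is assumed to vary like the others. The skeletal muscle score varied in iWAT too, with a range of 1.17 to 10.05 for WT and of 1.73 to 10.58 for UCP1 KO, and WT replicate 5 (72.4 CPM of Ucp3) and UCP1 KO replicate 1 (117 CPM) had the highest scores of their groups. Among the libraries without lymph node RNA it was 1.17 to 2.77 in the 3 of WT, while the 4 of UCP1 KO had 10.58, 1.93, 1.73 and 4.90. With this score as a covariate, a choice made after seeing the data, the difference among these libraries was 1.41 and was called (edgeR adjusted p = 0.00327), and in all libraries it was 1.18 (edgeR adjusted p = 0.258). In UCP1 KO against WT in iWAT, edgeR thus called 0 of 3 members, with 2 at an unadjusted p under 0.05, beside 14.7% of all genes. Over all genes edgeR called 0.61% there and 0.466% in UCP1 KO against dKO. DESeq2 called Ucp1, the targeted gene, and the share of all genes that DESeq2 called is not given here.

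**Figure D3:**
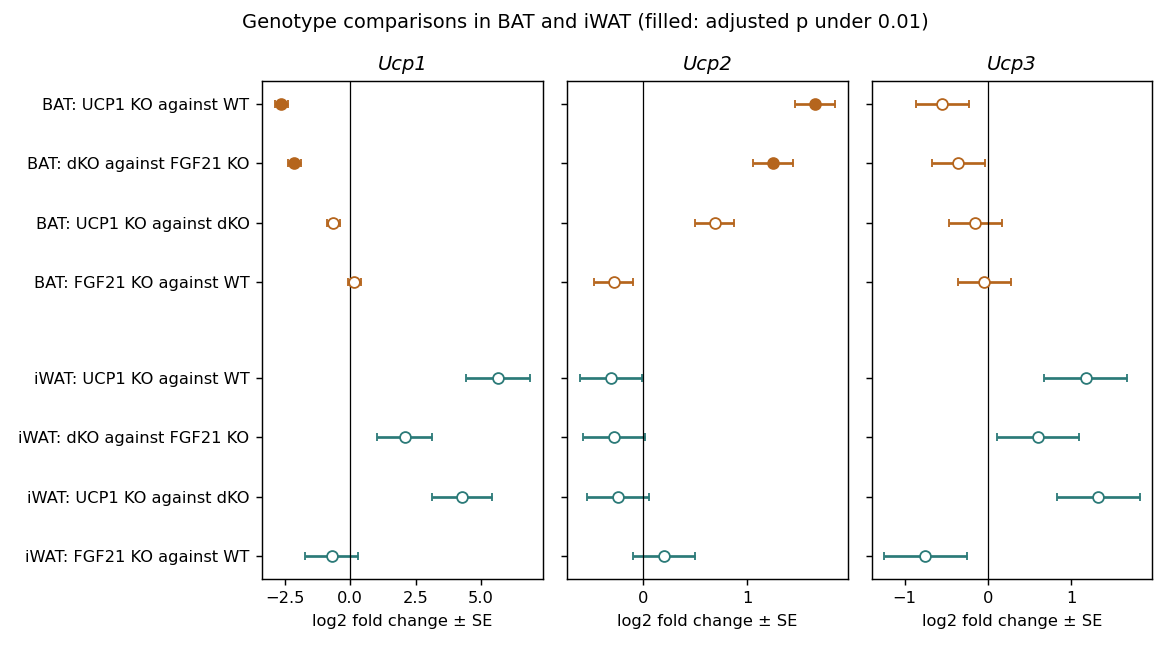
Log2 fold change of each gene ± SE from the edgeR fit for 4 genotype comparisons in BAT (brown) and iWAT (green), with filled points for an adjusted p under 0.01. The filled points are Ucp1 and Ucp2 in BAT for UCP1 KO against WT and dKO against FGF21 KO, and the widest bar belongs to Ucp1 in iWAT.

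The difference between the depots was tested in 1 fit of the 40 BAT and iWAT libraries, which took them as independent although both depots may come from the same mice. For UCP1 KO against WT, the log2 fold change of Ucp1 was greater in iWAT than in BAT by 8.29 (SE 1.17, edgeR adjusted p = 1.32e-05). That of Ucp2 was smaller in iWAT by 1.92 (SE 0.372, edgeR adjusted p = 0.000536). That of Ucp3 was greater in iWAT by 1.73 (SE 0.598, edgeR adjusted p = 0.0492), which missed the threshold. Among all genes 6.47% were called in this test. For dKO against FGF21 KO, where 1.84% were called, the differences of 4.23 for Ucp1 and -1.53 for Ucp2 missed it (edgeR adjusted p = 0.0149 and 0.0109), as did 0.95 for Ucp3 (edgeR adjusted p = 0.312). Without FGF21 KO iWAT replicate 2, the value of Ucp1 was 7.50 (edgeR adjusted p = 1.84e-07).

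Other brown adipocyte genes were counted beside Ucp1 in both depots. In BAT, UCP1 KO against WT, 1 of 13 was called higher and 3 lower (median -0.34), where 13.8% of all genes were called higher and 11.4% lower. Elovl3, a fatty acid elongase of brown fat, rose by 3.31, whereas Cox8b, a cytochrome oxidase subunit, fell by 0.74, the proton channel Otop1 fell by 0.66 and the ATP receptor P2rx5 fell by 0.74. Cidea, a lipid droplet protein of brown adipocytes, was at -0.09 and was not called. Its mean CPM, scaled by the library total alone, was 2218 in UCP1 KO and 1960 in WT. The sign of a small shift in BAT can thus depend on the scaling. In iWAT, UCP1 KO against WT, 5 of 12 tested genes were called higher and 1 lower (median 2.41, beside -0.03 over all genes, of which 0.593% were called higher and 0.0173% lower). Elovl3 rose by 8.39, Cidea by 4.90, the thyroid hormone activating enzyme Dio2 by 4.67, Cox7a1 by 3.56 and P2rx5 by 2.23. Lhx8, a homeobox gene of classical brown fat, fell by 1.16, but in WT it was higher in iWAT (mean 4.77 CPM) than in BAT (mean 2.67 CPM). Against dKO in iWAT, 2 were called higher, Elovl3 (6.26) and Cox7a1 (3.72), beside 0.437% of all genes.

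Set against this list in each library, a measure added after the data were seen, Ucp1 stood lower in BAT and higher in iWAT of UCP1 KO. Log2 Ucp1 minus the brown adipocyte score was 5.52 ± 0.397 in WT BAT, 5.72 ± 0.226 in FGF21 KO, 3.02 ± 0.317 in UCP1 KO and 3.51 ± 0.317 in dKO (SD, n = 5). In iWAT it was -0.45 ± 0.863 in WT, -2.31 ± 1.98 in FGF21 KO, 2.86 ± 0.46 in UCP1 KO and 0.52 ± 0.662 in dKO. UCP1 KO was below WT by 2.50 in BAT and above WT by 3.31 in iWAT, with no overlap of libraries in either (exact permutation p = 0.00794, adjusted over 10 comparisons 0.0159). UCP1 KO was above dKO by 2.34 in iWAT, again with no overlap (exact permutation p = 0.00794, adjusted 0.0159), whereas in BAT the groups overlapped, with a difference of -0.49 (exact permutation p = 0.0397, adjusted 0.0567). In UCP1 KO the values of BAT, 2.53 to 3.36, and of iWAT, 2.27 to 3.38, covered nearly the same range, although the score itself was 6.97 in BAT and 5.25 in iWAT. Zic1, which is in the score, was at a mean of 0.022 CPM in iWAT and 5.80 CPM in BAT of UCP1 KO. The offset of 0.1 CPM therefore partly sets the score in iWAT, and with it the closeness of these ranges.

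**Figure D4:**
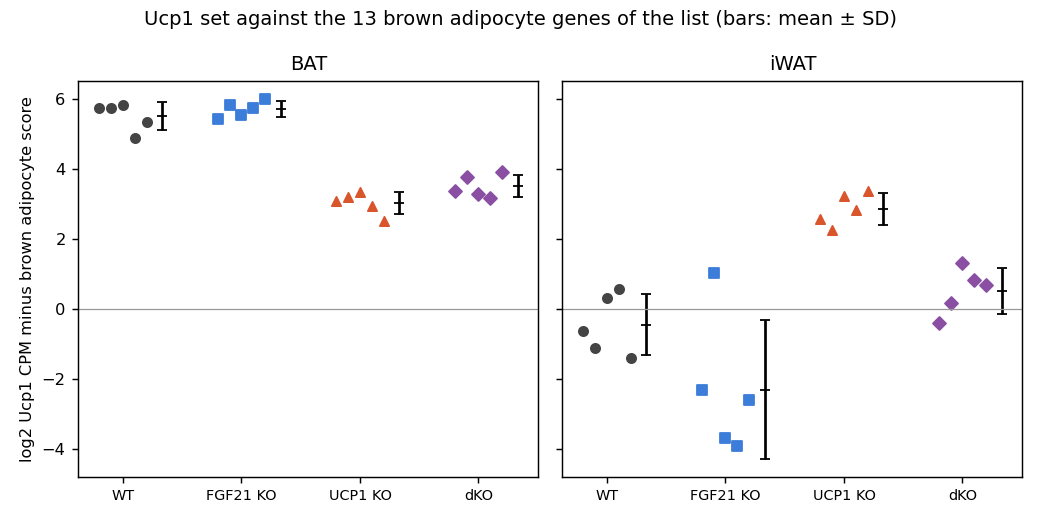
Log2 Ucp1 CPM minus the mean log2 CPM of 13 brown adipocyte genes, 1 point per library, in BAT and iWAT by labelled genotype, with bars for the mean ± SD of 5 libraries. In BAT the UCP1 KO mean is 3.02 and the WT mean 5.52, and in iWAT they are 2.86 and -0.45.

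Genes that act on Ucp1 transcription were counted in the same way. In BAT, UCP1 KO against WT, 0 of 15 activators were called higher and 5 lower (median -0.40), beside 13.8% and 11.4% of all genes. The thyroid hormone receptors Thrb and Thra fell by 1.38 and 0.47, the β3-adrenergic receptor Adrb3 fell by 1.29, the coactivator Ppargc1b fell by 0.90 and the retinoid receptor Rxra fell by 0.66. In iWAT 2 of 15 were called higher and 0 lower (median 0.26), beside 0.593% and 0.0173% of all genes, namely the fatty acid sensing receptor Ppara (3.38) and the estrogen-related receptor Esrra (0.92). The coactivator Ppargc1a, at 1.46 in iWAT (edgeR adjusted p = 0.0694) and -0.15 in BAT (edgeR adjusted p = 0.736), was called in neither. The 5 repressors lay between -0.25 and 0.64 in BAT, where the lowest edgeR adjusted p was 0.0259 (Nr1h3), and between -0.23 and 0.42 in iWAT, where it was 0.426 (Rb1).

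UCP3 and UCP1 are tied to fatty acid use, and these genes were counted next. In BAT, UCP1 KO against WT, 4 of 16 were called higher and 1 lower (median -0.12), a share close to the 25.2% of all genes called, with the thioesterase Acot2 at 2.399, the liver-type carnitine palmitoyltransferase Cpt1a at 1.57, the lipid droplet protein Plin2 at 1.40, the fatty acid binding protein Fabp3 at 0.87 and the muscle-type enzyme Cpt1b at -0.41. Their mean log2 CPM, scaled by the library total alone, was 9.01 in UCP1 KO and 8.55 in WT. In iWAT 6 of 16 were called higher and 0 lower (median 1.94), beside 0.593% and 0.0173% of all genes, with Cpt1b at 3.76, the pyruvate dehydrogenase kinase Pdk4 at 2.94, Acot2 at 2.94, Acadvl at 2.03, the carnitine carrier Slc25a20 at 2.01 and Hadha at 1.93. The other carriers with uncoupling activity or close sequence, among them the ADP/ATP carriers Slc25a4 and Slc25a5, lay between -0.32 and 1.55 in BAT (8 tested, median 0.01) and between -0.31 and 0.57 in iWAT (7 tested, median 0.18). Their lowest edgeR adjusted p was that of Slc25a11, the mitochondrial oxoglutarate carrier, with 0.0154 in BAT and 0.0373 in iWAT. Slc25a5 was at 0.21 in BAT (edgeR adjusted p = 0.0501) and 0.57 in iWAT (edgeR adjusted p = 0.17).

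In muscle, no member was called in any of 5 genotype comparisons or the interaction. None of the 18 tests had an unadjusted p under 0.05 in edgeR, and DESeq2 made 0 calls in the 12 tests for which it gave an adjusted p. Ucp3, the main member there, had 140 to 369 CPM in WT, 125 to 292 in FGF21 KO, 151 to 414 in UCP1 KO and 160 to 275 in dKO, and the difference between UCP1 KO and WT was -0.05 (SE 0.304, edgeR adjusted p = 0.976). Ucp2 was at 10.1 to 16.8 CPM in the 20 libraries. Over all genes 0.0265% were called in UCP1 KO against WT, 0.0529% in dKO against WT, 0.00662% in FGF21 KO against WT, 0.0595% in dKO against FGF21 KO and 0% in the other tests.

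Ucp1 in muscle was high in 1 library of each genotype. WT had 0.965, 0.74, 2.05, 28.1 and 1.17 CPM, FGF21 KO had 0.395, 0.8, 0.892, 0.713 and 21.8, UCP1 KO had 1.10, 0.927, 0.913, 2.33 and 10.8, and dKO had 1.89, 3.12, 9.76, 1.07 and 0.695. The brown adipocyte score was 2.65, 2.32, 2.77 and 2.82 in the 4 high libraries and 1.36 to 1.90 in the other 16. Their adipocyte score, 4.30 to 5.31, lay within the range of 2.99 to 5.31 of all muscle libraries. The difference of Ucp1 between UCP1 KO and WT was -1.08 (SE 1.16, edgeR adjusted p = 0.803) and turned to 0.13 with the adipocyte score as a covariate (edgeR adjusted p = 0.987) and to 1.37 without WT replicate 4 (edgeR adjusted p = 0.779). The part of brown fat RNA in these values was not tested.

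**Figure D5:**
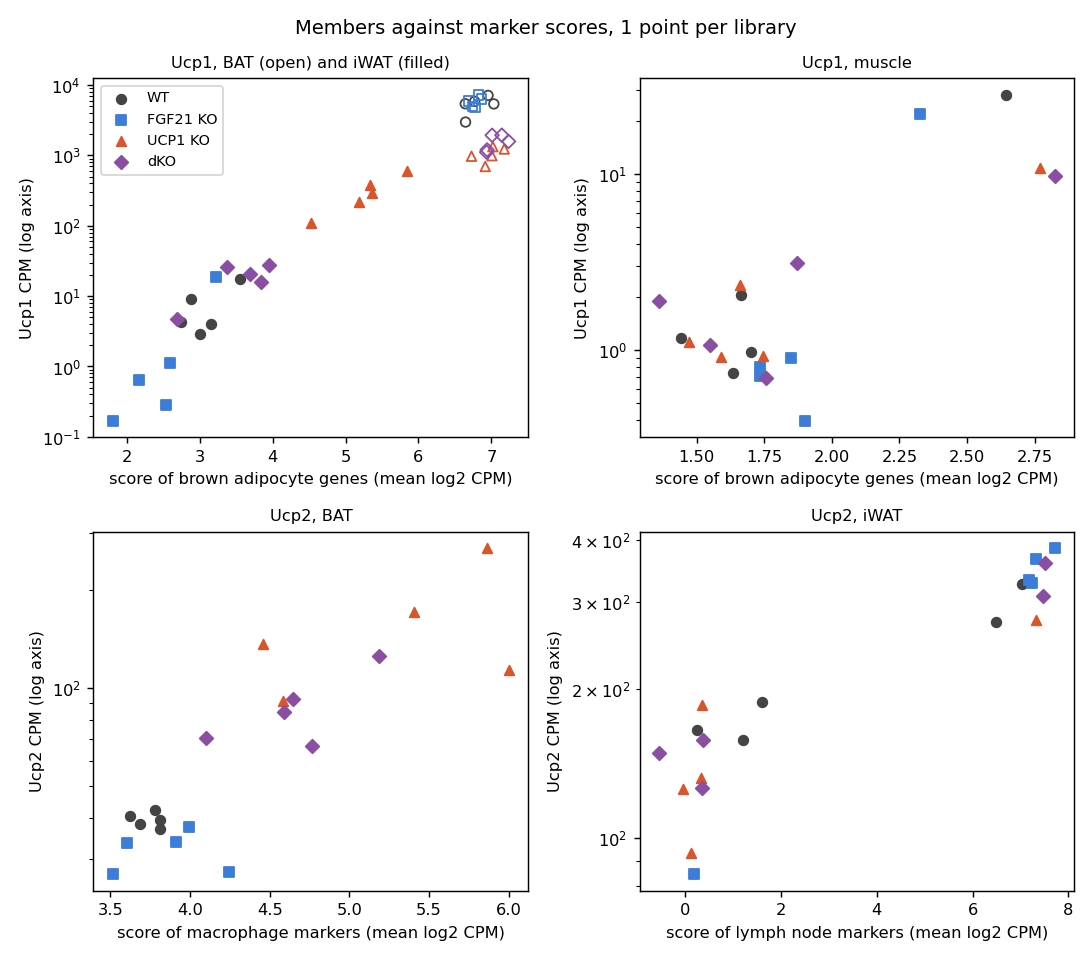
CPM on a log axis against the mean log2 CPM of a marker list, 1 point per library, coloured by labelled genotype, for Ucp1 with brown adipocyte genes in BAT and iWAT and in muscle, Ucp2 with macrophage markers in BAT and Ucp2 with lymph node markers in iWAT. The 4 muscle libraries at 9.76 to 28.1 CPM of Ucp1 have the 4 highest brown scores, and the 9 iWAT libraries with lymph node scores from 6.48 have Ucp2 from 273 CPM.

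In liver, Ucp2 had the highest level of the 3 members per kilobase in WT, and Ucp1 was low but was counted in all 20 libraries (8 to 109 counts). WT had 17.1, 15.9, 18.4, 13.1 and 15.6 CPM and UCP1 KO had 24.5, 10.6, 28.5, 24.6 and 25.8 CPM. FGF21 KO had 9.76 to 24.3 CPM and dKO had 15.8 to 21.8 CPM. In UCP1 KO, 4 libraries lay above all WT libraries and replicate 2 lay below all of them, and the difference of 0.53 was not called (SE 0.204, edgeR adjusted p = 0.349). Ucp1 had 8 to 30 counts in WT, 24 to 44 in UCP1 KO, 19 to 74 in dKO and 31 to 109 in FGF21 KO, whose label leaves Ucp1 intact. WT had the lowest mean, and the differences from it were 1.13 in UCP1 KO, 1.27 in dKO and 1.43 in FGF21 KO, none of them called (edgeR adjusted p = 0.367, 0.247 and 0.359). WT liver also had the highest mean skeletal muscle score, 3.01 against 1.14 to 1.54 in the other genotypes. With that score as a covariate, 3 of 12 liver tests of Ucp1 and Ucp2 had an unadjusted p under 0.05 in edgeR, and 0 were called. Without a covariate, neither edgeR nor DESeq2 called Ucp1 or Ucp2 in any of 12 tests in liver. Of these, 5 (4 of Ucp1 and 1 of Ucp2) had an unadjusted p under 0.05 in edgeR, beside 5.16% to 12.1% of all genes in these 6 comparisons. The 4 of Ucp1 all include the WT group, so they are not separate results. Over all genes 0.0694% were called in UCP1 KO against WT, 0.0416% in dKO against WT, 0.229% in FGF21 KO against WT, 0.00694% each in dKO against FGF21 KO and UCP1 KO against dKO, and 0% in the interaction.

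The genes whose pattern over the 16 group means was most like that of each member were ranked by Pearson r of mean log2 CPM, as a description. For Ucp1 they were Atpaf2 (r = 0.988), an assembly factor of the ATP synthase, and Gpx4 (r = 0.98), a lipid peroxide reductase. For Ucp2 they were Cdca7l (r = 0.985) and Hyls1 (r = 0.984). For Ucp3 they were P2rx6 (r = 0.998), Rhoq (r = 0.998) and Slc2a4 (r = 0.996), the insulin-responsive glucose transporter. The 16 means come from 4 tissues, so differences between tissues weigh heavily in these r values. Within iWAT, over the deviations of 20 libraries from their genotype means, the leading genes were Acaca (r = 0.903) and Cidea (r = 0.899) for Ucp1, Cerk (r = 0.979) and Cyth4 (r = 0.973) for Ucp2, and Mtfp1 (r = 0.919) and Ehbp1l1 (r = 0.914) for Ucp3. The iWAT libraries share a tissue, so their r values also carry what varies in the make-up of the samples.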

How the data were processed

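RNA was sequenced from BAT, iWAT, liver and muscle of 4 genotypes, in 80 libraries. The authors mapped reads to mm10 (GRCm38) with STAR, counted them per gene with HTSeq and deposited unnormalized read counts, 1 library per file. A row without a gene name, at most 3.4e-05% of a library, was left out. Groups came from the labels, replicate numbers follow the order of the records and only name libraries, and no 2 libraries of a group were identical (160 pairs).

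The filter of the study's methods kept genes that summed to over 75 counts, exceeded 15 counts in some library and were at 0 in at most 10 libraries: 15729 in BAT, 17380 in iWAT, 15114 in muscle, 14407 in liver, 16886 in WT across tissues and 17630 in BAT and iWAT together. Counts were scaled with TMM factors and fitted with edgeR 4.0.16 (R 4.3.3), 1 mean per group and no covariate. CPM in the text is the count per library total without TMM. Log2 CPM for permutation tests and likeness used a prior count of 2, and marker scores are the mean of log2 of CPM plus 0.1. The code was tested on simulated data. The genes and gene lists were chosen with earlier results of these data known, and the genes named were the members and Fgf21, the genes most like each member by Pearson r (unnamed gene models passed over, not all of them printed) and members of a gene list with the smallest p in a comparison, meant to be few per list. Further list genes were named so that all calls of a small count are given, and some were named after their values were seen, Cidea in BAT, Ppargc1a, Nr1h3, Rb1, Slc25a11 and Slc25a5 among them.

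Alternatives were DESeq2 1.42.0, RLE factors, no low-count filter, marker scores as covariates, only iWAT libraries with a lymph node score up to 4, fits of 2 genotypes, the longest transcript as length, and leaving out each library in turn. The macrophage and adipocyte covariates, the muscle covariate among libraries without lymph node RNA and Ucp1 against the brown adipocyte list were chosen after seeing the data.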

Additional observations from a re-analysis of the deposited data

Results flagged for a closer look

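A library stood apart from the other 4 of its group in 4 of the 48 groups of gene, tissue and genotype, by a gap test that chance passes in about 1 of 20 groups. Ucp1 in muscle was at 28.1 CPM in WT replicate 4 and at 21.8 CPM in FGF21 KO replicate 5, and both libraries also had high brown adipocyte scores (2.65 and 2.32). Ucp2 in iWAT was at 84.5 CPM in FGF21 KO replicate 2, the 1 library of that group without lymph node RNA. Ucp2 in liver was at 10.6 CPM in UCP1 KO replicate 2, where the other 4 libraries had 24.5 to 28.5 CPM.

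The effect of UCP1 KO against WT differed between iWAT and BAT by 8.29 log2 units for Ucp1 and by -1.92 for Ucp2, in the test of that difference over 40 libraries.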

How the results depend on the processing

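The falls of Ucp1 in BAT passed the threshold under every alternative run, and so did the rises of Ucp2 there except with the macrophage score as a covariate, which gave 1.10 for UCP1 KO against WT and 0.62 for dKO against WT. Ucp1 in iWAT, UCP1 KO against WT, passed with DESeq2 (5.66), adjusted for the lymph node score (4.69) and without the libraries carrying lymph node RNA (6.18), and ranged from 5.26 to 6.17 when 1 library was left out. Against dKO it passed with DESeq2 (4.27) and without lymph node RNA (4.21), with a range of 3.90 to 4.52. Without lymph node RNA, Ucp3 passed for UCP1 KO against WT (1.62) and for the difference between depots (2.20), while signs turned for FGF21 KO against WT in Ucp1 (1.82), Ucp2 (-0.90) and Ucp3 (0.92), for dKO against FGF21 KO in Ucp2 (0.72) and Ucp3 (-0.42) and for the depot difference of Ucp3 in that comparison (-0.07). When these fits were also adjusted for the skeletal muscle score, UCP1 KO against WT passed in Ucp1 (6.33) and Ucp3 (1.41), UCP1 KO against dKO passed in Ucp1 (4.35) and the depot difference passed in Ucp3 (2.22), while FGF21 KO against WT gave 1.91 in Ucp1, -1.04 in Ucp2 and 0.81 in Ucp3, and dKO against FGF21 KO gave 0.80 in Ucp2, -0.36 in Ucp3 and -0.17 for the depot difference of Ucp3. FGF21 KO had 1 library in all these fits. After adjustment for the lymph node score, Ucp2 turned to -0.20 for FGF21 KO against WT and 0.13 for dKO against FGF21 KO. With the skeletal muscle score, Ucp3 in BAT was 0.01 for FGF21 KO against WT, and with the adipocyte score Ucp1 in muscle was 0.13 for UCP1 KO against WT. In WT, DESeq2 called Ucp3 in BAT against muscle (-0.82) and Ucp1 in iWAT against liver (2.75, and 2.74 with RLE factors). For dKO against FGF21 KO between the depots, DESeq2 called Ucp1 (4.19) and Ucp2 (-1.54), and RLE factors called Ucp2 (-1.54). The cause was not tested for any of these. By the longest transcript, the share of Ucp2 was 0.32% in WT BAT, 70.2% in WT iWAT, 90.8% in WT liver and 3.12% in UCP1 KO muscle, and that of Ucp3 was 24% in WT iWAT. The share of Ucp1 was 5.83% in WT iWAT and 67.6% in UCP1 KO iWAT, where Ucp2 held 18.8%. The sum of the 3 genes in WT was then 3357 CPM per kilobase in BAT, 107.4 in muscle, 79.15 in iWAT and 4.415 in liver. Leaving out 1 library gave, for Ucp3 in BAT, -0.81 to -0.32 for UCP1 KO against WT, -0.13 to 0.08 for FGF21 KO against WT, -0.41 to 0.08 for UCP1 KO against dKO and -0.46 to 0.04 for the interaction. It gave 0.20 to 0.57 for the interaction of Ucp2 in BAT. It gave -0.20 to 0.17 and -0.19 to 0.81 for the interaction of Ucp2 and Ucp3 in iWAT, 0.27 to 4.07 for that of Ucp1, -4.01 to -0.18 for Ucp1 in iWAT, FGF21 KO against WT, 1.76 to 5.38 for dKO against FGF21 KO, and -2.35 to 1.37 for Ucp1 and -0.35 to 0.17 for Ucp3 in muscle, UCP1 KO against WT. In WT it gave -0.95 to -0.58 for Ucp3 in BAT against muscle (called without WT iWAT replicate 5, WT BAT replicate 5 or WT muscle replicates 1 or 2), and for Ucp1 -1.34 to 1.62 in iWAT against muscle, 2.20 to 2.97 in iWAT against liver (called without WT iWAT replicate 5 or any of the 5 WT muscle libraries) and 1.09 to 3.83 in muscle against liver, where WT muscle replicate 4 decided the first and the last. For dKO against FGF21 KO between the depots it gave 3.91 to 7.50 for Ucp1 (called without dKO iWAT replicate 1 or FGF21 KO iWAT replicate 2) and -1.73 to -1.37 for Ucp2 (called in 8 of 40 fits). No paired analysis was possible because the labels give no replicate numbers and tie no library to a mouse, and the numbers printed here only name libraries in the order of their records. Low counts limit Ucp1 and Ucp3 in liver.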
